A study of Homo sapiens with 18 samples.

Results

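The 39 genes described here encode enzymes listed under the breakdown of fatty acids and branched-chain amino acids. Of these, 16 were placed in mitochondrial fatty acid oxidation, 8 in peroxisomal fatty acid oxidation and 15 in the breakdown of leucine, isoleucine and valine. They were taken by name from a list of these pathways, and all 39 were measured, among 33616 genes with a transcript assigned to them alone. Each gene was read from the transcript with the highest mean signal over the 18 arrays. A second transcript existed for HADHA, HIBADH and HIBCH, and none of these second transcripts met the call rule below in any comparison.

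Gene expression was profiled on Affymetrix whole-transcriptome arrays in the human colon cancer lines HT-29 and HCT116. Each line was kept without treatment (untreated) or given 2.5 µM of erastin (ER), an inhibitor of the cystine carrier of the plasma membrane that is used to trigger ferroptosis, for 4 h or 24 h. There were 3 arrays in each of the 6 groups, and per the methods they came from 3 independent experiments. One untreated group per line served as the reference at both times, so the 4 h and 24 h comparisons share their control arrays, and neither a vehicle nor a culture time is stated for it.

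Fatty acids enter mitochondria as carnitine esters and are shortened there by a repeated cycle of dehydrogenation, hydration, a further dehydrogenation and thiolytic cleavage, which passes electrons to the respiratory chain. Peroxisomes run a related cycle on very long and branched chains, in which the first step gives its electrons to oxygen and forms hydrogen peroxide. The carbon skeletons of leucine, isoleucine and valine are handled in mitochondria by a shared transaminase and dehydrogenase complex and then by separate branches. Several of these later enzymes resemble those of fatty acid oxidation and hand their electrons to the same flavoprotein. Colon epithelium is known to draw much of its energy from short-chain fatty acids made by gut bacteria.

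Values are log2 signals as deposited. A member was called a differentially expressed transcript (DET) when limma, fitted to the 9 arrays of a line over all 135750 transcripts, gave a change of 1.2-fold or more with an unadjusted p no higher than 0.005, as the study's methods set them. The Benjamini-Hochberg adjusted p over all transcripts is given beside it. No member reached an adjusted p of 0.05 in any of the 8 comparisons, so each call below rests on the unadjusted threshold. The study's methods name a Student's t-test with p computed by permutation. Here that t-test was run within the lines with p from the t distribution, without the permutation, and is called the methods' t-test. It gave no member an adjusted p under 0.05 either. The counts at an unadjusted p under 0.05 follow with each comparison. The lines were normalized separately, and signals of different transcripts rest on different probes, so levels are set side by side without a test.

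The replicate 1 arrays labelled HT-29 stood apart from the other HT-29 arrays. LYZ, the gene of lysozyme, averaged 17.12 in replicate 1, 10.34 in replicate 2 and 11.24 in replicate 3, against 5.84 over the HCT116 arrays. The keratin gene KRT20, a mark of intestinal differentiation, stood at 14.15, 8.68, 9.02 and 7.30. Of the 8 intestinal differentiation genes on the marker list, 5 had their highest HT-29 mean in replicate 1 (LYZ, KRT20, VIL1, LGALS4 and CEACAM5) and 3 had their lowest there. The latter were CDX2 (8.10 in replicate 1, 8.90 and 9.30 in the others), CDH17 (5.19, 5.24 and 6.07) and TFF3 (6.37, 6.66 and 6.42). All 4 epithelial genes on the list (EPCAM, CDH1, KRT8 and KRT18) had their highest HT-29 mean in replicate 1. EPCAM averaged 15.66, 14.59 and 14.72 in replicates 1, 2 and 3 and lay between 14.26 and 15.87 on all 18 arrays. CDH1 averaged 13.20, 11.20 and 11.66. Among markers of liver, a tissue rich in these enzymes, ALB lay between 6.49 and 7.47, APOA1 between 5.03 and 5.84 and CYP3A4 between 4.60 and 5.998, where the median transcript of an array lay between 5.44 and 5.61. HT-29 results are therefore given also for replicates 2 and 3 alone. In bulk RNA of this kind, fewer cells of a state and less RNA per cell cannot be told apart.

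In untreated cells the members covered a wide range of signals, and 6 of them marked the ends of their classes. MCCC2, a subunit of methylcrotonyl-CoA carboxylase in leucine breakdown, read 14.13, 13.49 and 13.53 in HT-29, while HCT116 cells had 13.07, 13.22 and 13.58. BCAT1, the cytosolic branched-chain transaminase, read 5.80, 5.78 and 5.73 in HT-29, with 5.45, 5.52 and 5.62 for HCT116, close to the median transcript of the arrays. HADHA, the alpha subunit of the mitochondrial trifunctional protein, read 12.70, 12.48 and 13.06 in HT-29, and HCT116 cells had 12.65, 12.28 and 12.16. These enzymes of the same broad pathway were thus read at signals from that of the median transcript to far above it. ACADS, the short-chain acyl-CoA dehydrogenase, had the lowest mitochondrial signal, at 7.18, 7.50 and 7.57 in HT-29 (HCT116: 7.29, 7.29 and 7.83). ECI2, an enoyl-CoA isomerase, had the highest peroxisomal signal, at 11.48, 12.19 and 12.71 in HT-29 (HCT116: 12.54, 12.11 and 12.23). CROT, the carnitine octanoyltransferase that readies shortened chains for export from peroxisomes, had the lowest, at 8.19, 4.76 and 6.11 in HT-29 (HCT116: 4.91, 5.80 and 5.54). CROT was the member whose untreated HT-29 arrays spread the most, and its high array was replicate 1.

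After 24 h of ER, 5 of the 39 members rose in HCT116 cells and none fell, where 1.24% of all and 1.94% of single-gene transcripts were DETs. They were ACAA2 and HADHB of mitochondrial oxidation, PECR, a reductase placed in the peroxisomal class, and HIBADH and ALDH6A1 of valine breakdown. Over the whole list, 35 of 39 members had a log2 difference above 0 against 47.6% of all transcripts and 51.3% of single-gene transcripts, and the member median was 0.46 against 0.01 over single-gene transcripts. At an unadjusted p under 0.05, 16 members were higher and 0 lower, where 6.76% of single-gene transcripts were higher. All 3 treated arrays lay above all 3 untreated arrays for 18 members, a relation that held for 5.94% of all transcripts and 8.71% of single-gene transcripts. The class medians were 0.36 for mitochondrial oxidation, 0.37 for peroxisomal oxidation and 0.56 for branched-chain breakdown.

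ACAA2, the thiolase that closes the mitochondrial cycle, read 9.77, 9.96 and 9.30 in untreated HCT116 cells and 10.73, 10.79 and 10.76 after 24 h. The treated arrays lay within 0.1 of each other and above every untreated array. ACAA2 rose by 1.08 on the log2 scale (SE 0.21, adjusted p = 0.196), the smallest p of any member in this comparison. HADHB, the beta subunit of the trifunctional protein, which carries the long-chain thiolase, read 11.23, 11.16 and 11.34 untreated and 12.05, 11.90 and 11.75 after 24 h, without overlap. Its rise was 0.66 (SE 0.19, adjusted p = 0.398), and its unadjusted p lay just under the threshold of 0.005. Its partner HADHA read 13.11, 13.03 and 12.73 after 24 h, also above every untreated array, and was higher by 0.59 (SE 0.21, adjusted p = 0.482), which did not meet the call rule. The difference between the partners' changes was -0.06 (HADHA minus HADHB, exact two-sided permutation test of 3 arrays against 3, p = 0.8).

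The genes HADHA and HADHB start back to back, and the window of 250 bases upstream of each start overlaps the other's by 194 bases. That shared stretch, at chr2:26244689-26244882 (GRCh38.p14, plus strand, RefSeq), is printed because it is upstream of both subunits. The 150 bases before the start of ACAA2, at chr18:49813534-49813683 (minus strand), are printed beside it as those of the mitochondrial member with the smallest p.
HADHA and HADHB: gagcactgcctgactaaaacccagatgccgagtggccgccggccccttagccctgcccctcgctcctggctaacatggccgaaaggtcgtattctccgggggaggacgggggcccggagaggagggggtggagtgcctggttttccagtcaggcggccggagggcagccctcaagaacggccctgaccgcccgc
ACAA2: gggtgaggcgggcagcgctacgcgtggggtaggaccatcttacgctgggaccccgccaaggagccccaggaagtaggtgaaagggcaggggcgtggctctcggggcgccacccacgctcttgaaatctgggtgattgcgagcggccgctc

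The rest of the mitochondrial class stayed under the call rule in HCT116. ETFDH, which passes electrons from the flavoprotein to ubiquinone, read 7.65, 8.23 and 7.35 untreated and 9.32, 8.26 and 8.52 after 24 h. It was higher by 0.96 (SE 0.30, adjusted p = 0.428), with replicate 1 carrying the highest array. DECR1, the dienoyl-CoA reductase needed for polyunsaturated chains, read 10.50, 10.30 and 10.37 untreated and 11.67, 10.74 and 10.81 after 24 h, a difference of 0.68 (SE 0.25, adjusted p = 0.492). ECI1, an enoyl-CoA isomerase for unsaturated chains, differed by 0.58 (SE 0.20, adjusted p = 0.458). All 16 mitochondrial members had a difference above 0, from 0.07 for ETFB, a subunit of the electron transfer flavoprotein, to 1.08 for ACAA2. After quantile normalization 14 of 16 did, since ECHS1, the short-chain enoyl-CoA hydratase, and ETFB were then at -0.02 and -0.03. Over all classes, quantile normalization left 32 members above 0 in HCT116 and 29 in HT-29 at 24 h.

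**Figure D1:**
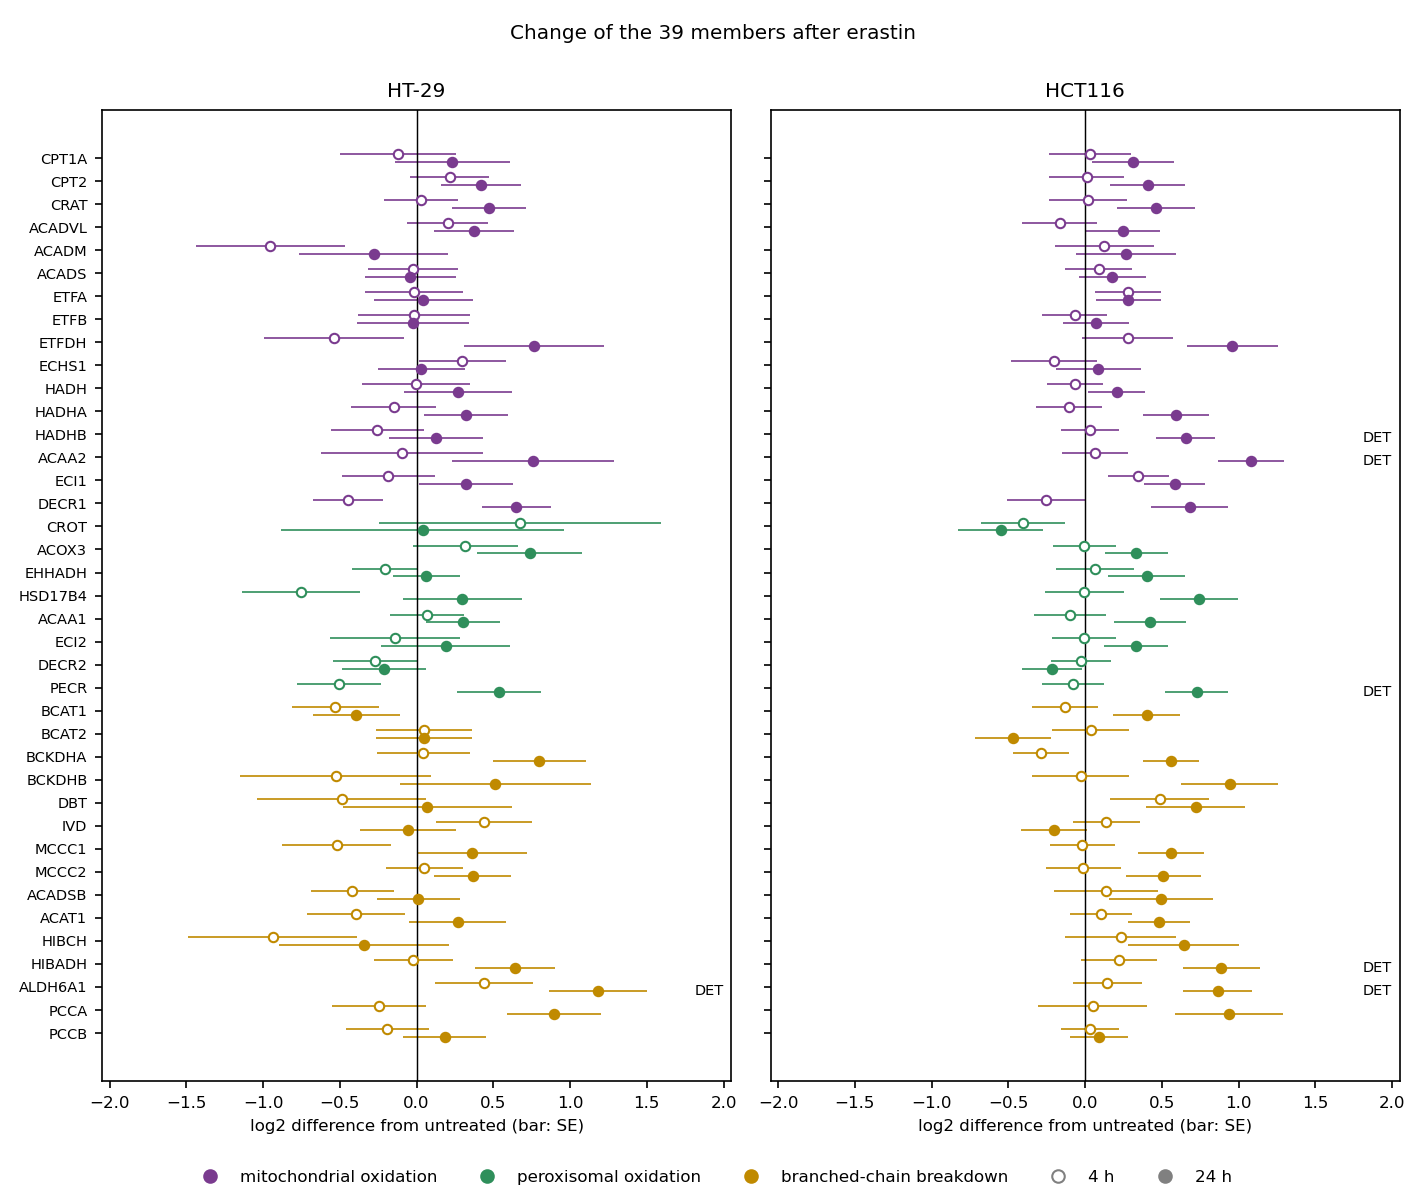
Log2 difference from untreated cells (x axis) of each of the 39 members (y axis, coloured by class) in HT-29 (left) and HCT116 (right), open points for 4 h and filled points for 24 h of ER, with bars for the SE. Filled points lie right of 0 for 32 members in HT-29 and 35 in HCT116, and the label DET marks the 1 and 5 members that met the call rule at 24 h.

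Among the peroxisomal members, PECR, a reductase of enoyl-CoA chains, read 9.11, 9.41 and 8.82 in untreated HCT116 cells and 9.82, 9.83 and 9.87 after 24 h. It rose by 0.73 (SE 0.20, adjusted p = 0.374), and its treated arrays were as tight as those of ACAA2. PECR was the only peroxisomal member called in any comparison of the main fits. A reduction is not a step of the oxidation cycle outlined above, so its call does not show a rise in the enzymes of that cycle. The same limit holds for the calls of DECR1 given below, a reductase placed in the mitochondrial class. HSD17B4, a bifunctional enzyme of the peroxisomal cycle, read 11.30, 11.44 and 10.93 untreated and 12.50, 11.80 and 11.60 after 24 h. The groups did not overlap, but the difference of 0.74 (SE 0.26, adjusted p = 0.463) did not meet the call rule. ACAA1, the peroxisomal thiolase, read 11.84, 11.55 and 11.43 untreated and 12.21, 11.96 and 11.92 after 24 h, a difference of 0.42 (SE 0.23, adjusted p = 0.66). ACOX3, an oxidase that starts the cycle on branched chains, read 9.30, 8.78 and 9.21 untreated and 9.52, 9.32 and 9.44 after 24 h, a difference of 0.33 (SE 0.21, adjusted p = 0.702). Both kept their treated arrays above the untreated ones without passing the threshold. CROT and DECR2, the peroxisomal dienoyl-CoA reductase, were the peroxisomal members below 0, at -0.55 (SE 0.27, adjusted p = 0.616) and -0.22.

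The 150 bases before the start of PECR (chr2:216081810-216081959, minus strand, GRCh38.p14, RefSeq) and of ALDH6A1 (chr14:74084454-74084603, minus strand) are shown since these are the called members of the peroxisomal and branched-chain classes with a RefSeq window here that rose in this comparison.
PECR: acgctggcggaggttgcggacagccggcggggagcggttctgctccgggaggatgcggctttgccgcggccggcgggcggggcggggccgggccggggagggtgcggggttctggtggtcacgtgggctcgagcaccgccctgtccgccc
ALDH6A1: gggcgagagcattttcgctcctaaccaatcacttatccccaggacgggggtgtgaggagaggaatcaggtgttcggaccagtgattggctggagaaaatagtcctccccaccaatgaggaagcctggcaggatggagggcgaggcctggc

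Branched-chain breakdown held the called members ALDH6A1 and HIBADH, which act one after the other at the end of the valine branch. ALDH6A1, the methylmalonate semialdehyde dehydrogenase, read 7.71, 8.16 and 7.73 in untreated HCT116 cells and 8.98, 8.35 and 8.85 after 24 h. It rose by 0.86 (SE 0.23, adjusted p = 0.343). HIBADH, the hydroxyisobutyrate dehydrogenase, read 9.57, 10.31 and 9.38 untreated and 10.90, 10.59 and 10.42 after 24 h, and rose by 0.89 (SE 0.25, adjusted p = 0.374). For both, the treated arrays lay above the untreated ones, and for HIBADH the highest untreated array, 10.31, lay just under the lowest treated one. HIBCH, the hydrolase upstream of HIBADH, differed by 0.64 without a call. The dimmer second transcripts of HIBADH and HIBCH changed less, by 0.44 and 0.11. HIBADH lost its call when the transcripts of a gene were averaged.

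The branched-chain dehydrogenase complex commits all 3 amino acids to breakdown. BCKDHA, its E1 alpha subunit, read 8.18, 7.92 and 8.10 untreated and 8.59, 8.56 and 8.72 after 24 h in HCT116, a difference of 0.56 (SE 0.18, adjusted p = 0.445). BCKDHB, the E1 beta subunit, and DBT, the E2 core, had differences of 0.94 for BCKDHB (SE 0.32, adjusted p = 0.457) and 0.72 for DBT (SE 0.32, adjusted p = 0.574). Each of these subunits had its treated arrays above its untreated ones, and none met the call rule. PCCA, the alpha subunit of propionyl-CoA carboxylase, read 7.91, 7.55 and 6.64 untreated and 9.06, 8.003 and 7.83 after 24 h, with overlap, and differed by 0.94 (SE 0.35, adjusted p = 0.501). Its partner PCCB differed by 0.09, and the gap between the partners, 0.84, gave an exact two-sided permutation p of 0.2. BCAT2, the mitochondrial transaminase at the entry of the pathway, and IVD, the isovaleryl-CoA dehydrogenase, were the branched-chain members below 0, at -0.47 and -0.20.

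The number of members called in HCT116 at 24 h changed with single arrays. Replicate 1 of the 24 h group was the highest of its group for 20 of 39 members, where it was the highest for 29.2% of single-gene transcripts, and it had the most extreme score of the line on the first principal component. Its member median lay 0.59 above the untreated mean, against 0.38 and 0.39 for replicates 2 and 3. Without it 1 member was called, 33 of 39 were above 0 and 13 were higher at an unadjusted p under 0.05. In that fit 1.02% of all transcripts were DETs, against 1.24% in the main fit, and their share at an unadjusted p under 0.05 was not counted. Omitting untreated replicate 1 or 3 also left 1 call, omitting 4 h replicate 1 or 2 left 2, and omitting 4 h replicate 3 or 24 h replicate 2 or 3 left 3. The share of all transcripts called moved as well, to 1.02% and 0.807% without untreated replicate 1 and 3. It was 1.03% and 1.02% without 4 h replicate 1 and 2, and 1.10% without 4 h replicate 3. Without 24 h replicate 2 and 3 it was 1.18% and 1.67%. ACAA2 met the call rule in every one of these omissions, and in 17 of the 19 alternative settings run for it. It lost the call in the fit of all 18 arrays and under the methods' t-test, which also lost PECR, HIBADH and ALDH6A1 and whose 2 calls were HADHB and BCKDHA. HADHB met it in 5 of 19, PECR and HIBADH in 8 each and ALDH6A1 in 12.

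**Figure D2:**
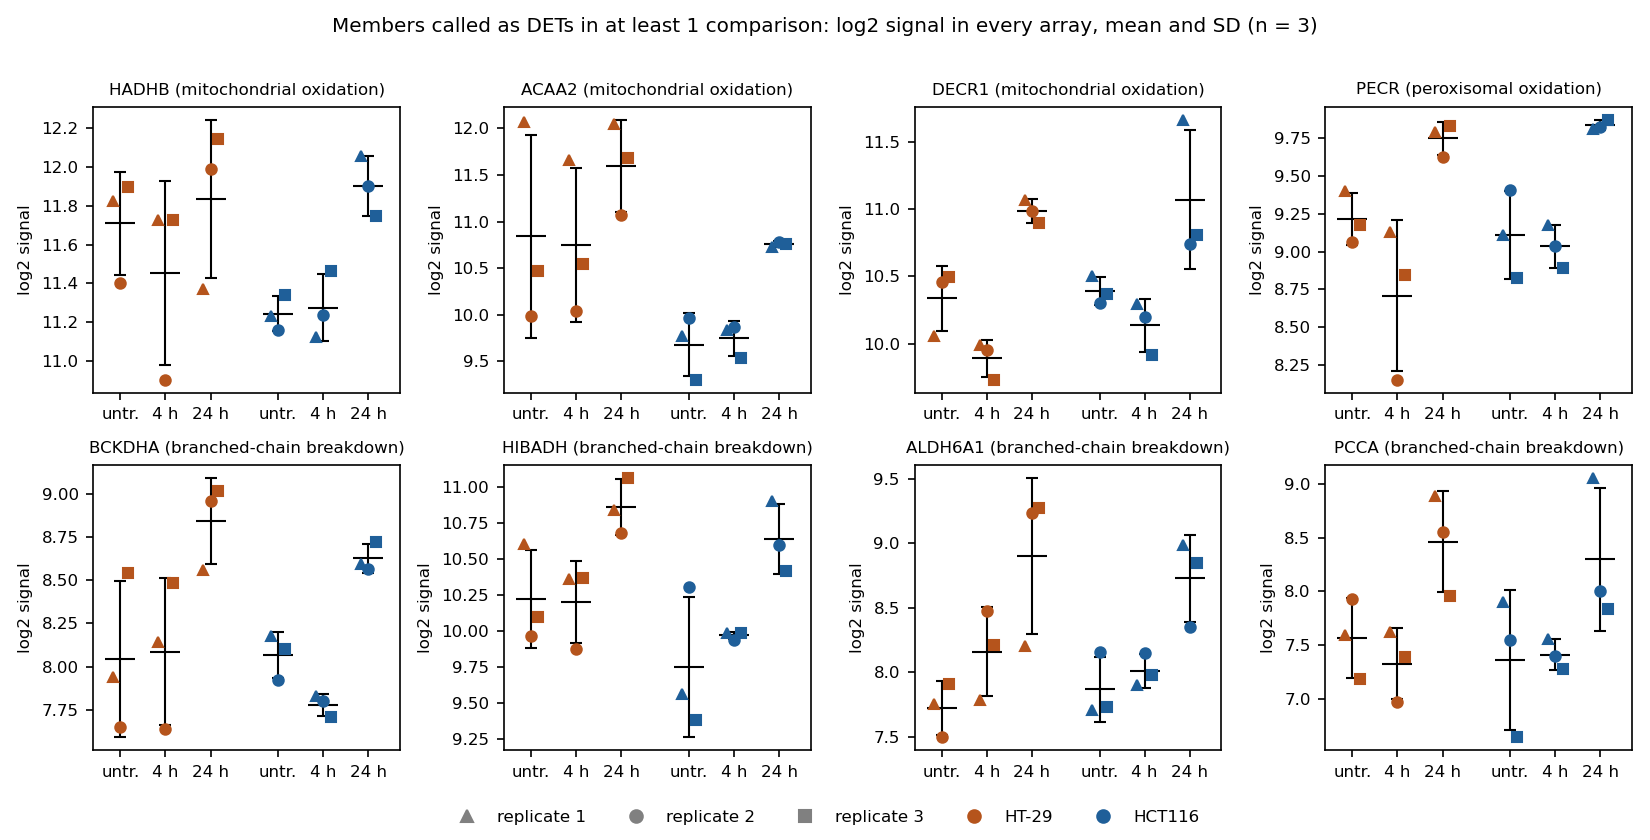
Log2 signal (y axis) of the 8 members that were DETs in at least 1 comparison, in every array of the 6 groups (x axis), with the mean and SD of each group of 3 arrays and a symbol for each replicate number. The 24 h arrays of HCT116 sit above the untreated arrays for ACAA2, HADHB, PECR, HIBADH and ALDH6A1, while for ACAA2 in HT-29 the replicate 1 arrays lie at 12.06, 11.66 and 12.05 in all groups.

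In HT-29 cells, 1 of the 39 members rose after 24 h and none fell, where 0.377% of all and 0.655% of single-gene transcripts were DETs. The member was ALDH6A1, which read 7.76, 7.49 and 7.91 untreated and 8.20, 9.23 and 9.27 after 24 h. It rose by 1.18 on the log2 scale (SE 0.32, adjusted p = 1.00). The replicate 1 array was the lowest of the treated group, and in replicates 2 and 3 alone, where 0.501% of all transcripts were DETs, the rise was 1.55 (SE 0.31, adjusted p = 0.79). The call was lost under the methods' t-test, under quantile normalization, and when any 1 of the 3 untreated arrays, or 24 h replicate 2 or 3, was left out. Every member had an adjusted p of 1.00 in this comparison and in both comparisons at 4 h. Over the list, 32 of 39 members were above 0, against 52.4% of all transcripts, with a median of 0.27. At an unadjusted p under 0.05, 5 were higher and 0 lower, where 2.64% of single-gene transcripts were higher. The class medians were 0.30, 0.24 and 0.27 for mitochondrial, peroxisomal and branched-chain members, and in replicates 2 and 3 alone 0.38, 0.24 and 0.31.

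Several of the members that stood out in HCT116 lay in the same direction in HT-29 without a call. PCCA read 7.60, 7.93 and 7.18 untreated and 8.89, 8.55 and 7.95 after 24 h, a difference of 0.90 (SE 0.31). BCKDHA read 7.94, 7.65 and 8.54 and then 8.56, 8.96 and 9.02, a difference of 0.80 (SE 0.30). HIBADH read 10.61, 9.97 and 10.10 and then 10.84, 10.68 and 11.07, a difference of 0.64 (SE 0.26), or 0.04 for its second transcript. In each the treated arrays lay above the untreated ones, as they did for 8 members in all, a relation that held for 5.12% of all transcripts and 5.83% of single-gene transcripts. DECR1 read 10.06, 10.46 and 10.49 and then 11.07, 10.99 and 10.90, a difference of 0.65 (SE 0.23). In replicates 2 and 3 alone, the differences were 0.70 for PCCA, 0.89 for BCKDHA, 0.84 for HIBADH and 0.47 for DECR1.

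Mitochondrial and peroxisomal members with the next smallest p in HT-29 showed smaller or less even differences. CRAT, the carnitine acetyltransferase, read 8.70, 8.60 and 8.24 untreated and 8.98, 8.90 and 9.08 after 24 h, a difference of 0.47 (SE 0.24), and in HCT116 8.54, 8.02 and 8.66 and then 9.06, 8.86 and 8.70, a difference of 0.46 (SE 0.25). ETFDH read 7.66, 8.43 and 8.09 and then 9.63, 8.24 and 8.61 in HT-29, where its difference of 0.77 (SE 0.46) was 0.17 in replicates 2 and 3 alone. PECR read 9.40, 9.06 and 9.17 and then 9.79, 9.63 and 9.83, a difference of 0.54 (SE 0.27). The CRAT and PECR groups did not overlap, and those of ETFDH did. ACOX3 read 8.55, 8.60 and 9.01 and then 8.73, 9.94 and 9.71, a difference of 0.74 (SE 0.34). ACAA1 read 12.0004, 11.46 and 12.01 and then 12.28, 12.09 and 11.9993, a difference of 0.30 (SE 0.24). For ACOX3 the replicate 1 array stayed within the untreated range, and without it the member met the call rule. In replicates 2 and 3 alone the differences were 0.57 for CRAT, 0.61 for PECR, 1.02 for ACOX3 and 0.31 for ACAA1, none of them a call.

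For the trifunctional protein and ACAA2, the HT-29 arrays gave no call. HADHB read 11.82, 11.40 and 11.90 untreated and 11.37, 11.99 and 12.14 after 24 h, a difference of 0.13 (SE 0.31), or 0.41 in replicates 2 and 3 alone. ACAA2 read 12.06, 9.98 and 10.47 untreated, 11.66, 10.04 and 10.55 after 4 h, and 12.05, 11.06 and 11.68 after 24 h. Its replicate 1 arrays were the highest at each time, and the difference of 0.76 had an SE of 0.53. In replicates 2 and 3 alone it was 1.15 (SE 0.35), which did not meet the call rule either.

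At 4 h no member met the call rule in either line, with limma or with the methods' t-test, where 0.223% of all transcripts in HT-29 and 0.29% in HCT116 were DETs. At an unadjusted p under 0.05 limma gave 0 members in both lines, against 3.51% and 3.85% of all transcripts, and the t-test gave 0 in HT-29 and 1, lower, in HCT116. In HCT116, 21 of 39 members were above 0, against 47.4% of all transcripts, with a median of 0.02. In HT-29, 12 were above 0, against 55% of all transcripts, with a median of -0.14, and 8 after median centring and 17 after quantile normalization. The 4 h array of replicate 2 was the lowest of its group for 28 of 39 members, against 40.9% of single-gene transcripts. Its member median relative to the untreated mean was -0.40, whereas replicates 1 and 3 lay at 0.08 and 0.02. Without that array 19 members were above 0, and the class medians were 0.07, -0.16 and -0.07 for mitochondrial, peroxisomal and branched-chain members.

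The members with the most negative differences from untreated in HT-29 at 4 h were ACADM, the medium-chain acyl-CoA dehydrogenase, and HIBCH. ACADM read 10.65, 11.27 and 10.69 untreated and 10.98, 9.04 and 9.73 after 4 h, and HIBCH read 9.86, 9.96 and 9.38 and then 10.28, 8.02 and 8.08. In both, replicate 1 lay above the untreated mean while replicates 2 and 3 lay below every untreated array. Over all arrays the differences were -0.95 (SE 0.49) and -0.94 (SE 0.55). In replicates 2 and 3 alone both met the call rule, at -1.60 (SE 0.36, adjusted p = 0.358) and -1.62 (SE 0.35, adjusted p = 0.352). In that setting 1.30% of all transcripts were DETs, and 1190 of these 1766 were lower. These members are named after their values were seen. In HCT116 their differences at 4 h were 0.13 and 0.23.

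**Figure D3:**
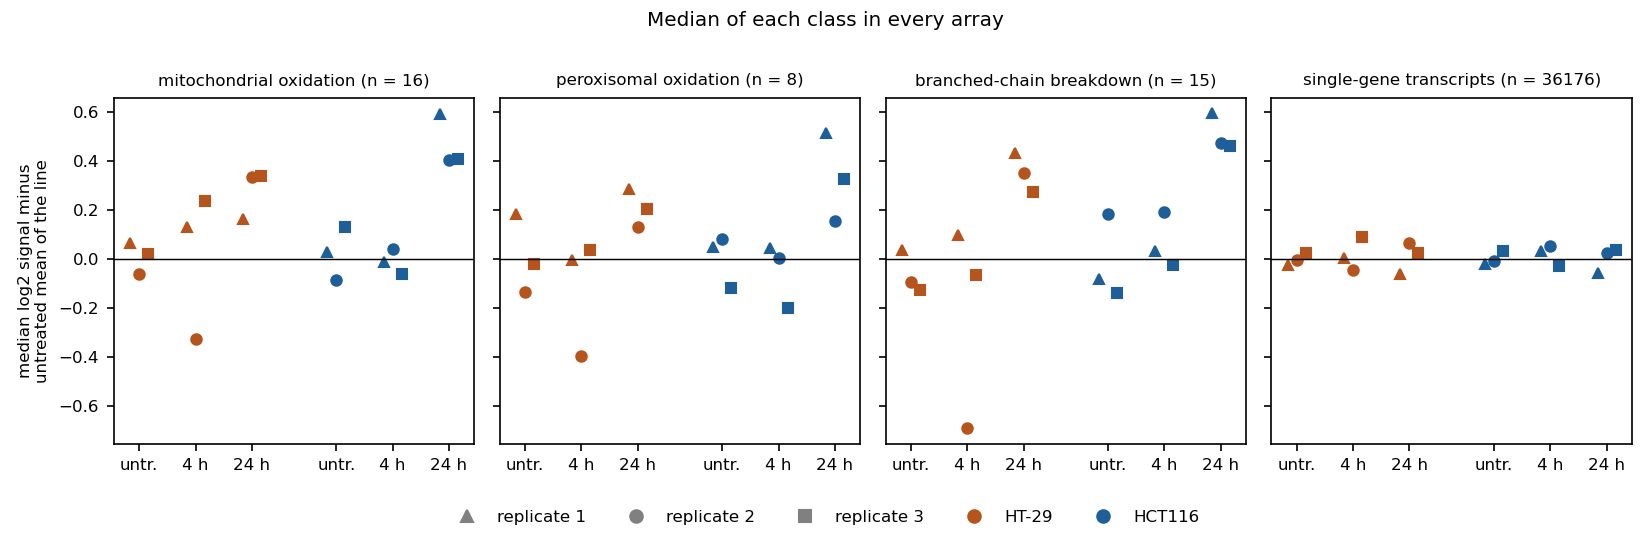
Median over the members of each class of the log2 signal minus the untreated mean (y axis), in every array of the 6 groups (x axis). Each member's own mean over the untreated arrays of the line was subtracted before the median was taken. The same was done for 36176 single-gene transcripts. The HCT116 24 h arrays lie between 0.16 and 0.59 in the classes and within 0.06 of 0 for single-gene transcripts, and the 4 h array of HT-29 replicate 2 lies at -0.33, -0.40 and -0.69.

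The difference of 24 h against 4 h does not use the untreated signals, but each time group is shared with the comparisons above. The untreated arrays still enter the estimate of the spread, and so the SE and p. In HT-29, 3 members rose and none fell, where 0.906% of all and 1.63% of single-gene transcripts were DETs. DECR1 went from 9.99, 9.95 and 9.73 at 4 h to 11.07, 10.99 and 10.90 at 24 h, a rise of 1.10 (SE 0.23, adjusted p = 0.248). PCCA went from 7.62, 6.97 and 7.39 to 8.89, 8.55 and 7.95, a rise of 1.14 (SE 0.31, adjusted p = 0.491), and PECR from 9.13, 8.15 and 8.84 to 9.79, 9.63 and 9.83, a rise of 1.04 (SE 0.27, adjusted p = 0.459). All 3 were without overlap, and DECR1 met the call rule in all 20 alternative settings run. PCCA and PECR both lost the call under the methods' t-test, with the 6 compared arrays alone, and without 4 h replicate 2, 24 h replicate 1 or 24 h replicate 2. PECR lost it also without 24 h replicate 3, and PCCA without 4 h replicate 3 and in replicates 2 and 3 alone. In those replicates 4 members rose (DECR1, PECR, ETFDH and HSD17B4), where 1.16% of all transcripts were DETs. HSD17B4 read 12.25, 11.77 and 11.50 untreated, 11.92, 10.42 and 10.93 at 4 h and 12.65, 11.70 and 12.07 at 24 h in HT-29. Without 4 h replicate 1, 6 members and 1.81% of all transcripts were called. Without 4 h replicate 2 or 24 h replicate 2, 1 member was, beside 0.694% and 0.677% of all transcripts.

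In HCT116, 4 members rose between 4 h and 24 h and none fell, where 2.04% of all transcripts and 3.48% of single-gene transcripts were DETs. BCKDHA went from 7.83, 7.80 and 7.71 to 8.59, 8.56 and 8.72, a rise of 0.85 (SE 0.18, adjusted p = 0.12), and met the call rule in all 19 alternative settings. ACAA2 went from 9.83, 9.87 and 9.53 to 10.73, 10.79 and 10.76, a rise of 1.01 (SE 0.21, adjusted p = 0.117). Both had 24 h arrays that lay close together and well above the 4 h arrays. When only the 36176 single-gene transcripts were tested, 2 members had an adjusted p under 0.05 in this comparison, as did 505 transcripts in all. In the main fit 113 of 135750 transcripts had one, none of them a member. DECR1 went from 10.29, 10.20 and 9.91 to 11.67, 10.74 and 10.81, a rise of 0.94 (SE 0.25, adjusted p = 0.207), and PECR from 9.17, 9.04 and 8.89 to 9.82, 9.83 and 9.87, a rise of 0.80 (SE 0.20, adjusted p = 0.178). DECR1 lost the call under the methods' t-test, with the 6 compared arrays alone and without 24 h replicate 1, the array at 11.67. Both DECR1 and PECR lost it without 4 h replicate 2 or 3, which left 2 members called, beside 1.31% and 1.33% of all transcripts. PECR lost it also without 24 h replicate 2 or 3. In all, 35 of 39 members were above 0, against 50% of all transcripts, with a median of 0.40, and 17 did not overlap, against 10.6% of single-gene transcripts. At an unadjusted p under 0.05, 15 members were higher in HCT116 and 9 in HT-29, where 7.79% and 4.35% of single-gene transcripts were, and 0 were lower in either line.

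The change at 24 h was set against the other line as a difference of differences in a fit of all 18 arrays. By limma, the tool run on it, no member met the call rule for this difference at 4 h or 24 h, where 0.277% and 0.322% of all transcripts did, and 0 and 1 members had an unadjusted p under 0.05, against 3.78% and 3.6% of all transcripts. At 24 h 30 of 39 members were above 0 in both lines, 5 in HCT116 alone and 2 in HT-29 alone. The median of the difference was 0.14, HCT116 minus HT-29, so that the larger HCT116 values are not shown to differ from those of HT-29. For ACAA2 the difference was 0.32 (SE 0.62), for HADHB 0.53 (SE 0.35), for ALDH6A1 -0.32 (SE 0.39) and for PECR 0.19 (SE 0.33). With the replicate 1 arrays of HT-29 left out, ACADM and HIBCH met the call rule for the difference at 4 h, as did 0.956% of all transcripts.

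BCAT1 was the member with an unadjusted p under 0.05 for the difference at 24 h. In HT-29 it read 5.80, 5.78 and 5.73 untreated, 5.23, 4.79 and 5.70 at 4 h and 4.96, 5.55 and 5.62 at 24 h. In HCT116 it read 5.45, 5.52 and 5.62 untreated, 5.61, 5.26 and 5.32 at 4 h and 5.61, 6.28 and 5.89 at 24 h. Its 24 h arrays lay below the untreated ones in HT-29 and mostly above them in HCT116, with differences of -0.39 (-0.17 in replicates 2 and 3 alone) and 0.40 and a difference between the lines of 0.79 (SE 0.35, adjusted p = 1.00). BCAT1 is a known target of amino acid stress signalling, and its promoter was the only one among the members' windows with the amino acid response element searched here. That element, TGATGCAA on either strand, is in capitals within 88 bases before the start (chr12:24949102-24949189, minus strand, GRCh38.p14, RefSeq), and 0.866% of all promoter windows held it. BCKDHB was the only member with the NRF1 core CGCATGCG, a palindrome found in 2.02% of windows, shown in capitals at chr6:80106460-80106547 (plus strand).
BCAT1: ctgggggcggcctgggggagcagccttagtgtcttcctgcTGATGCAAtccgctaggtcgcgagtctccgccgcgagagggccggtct
BCKDHB: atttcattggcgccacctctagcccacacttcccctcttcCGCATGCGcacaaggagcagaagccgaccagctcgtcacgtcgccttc

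These windows hold 250 bases before and 50 after each start and were found for 31 of the 39 members, as 43 windows. RefSeq windows were not matched for CRAT, ETFDH, DECR1, EHHADH, ACAA1, DECR2, BCAT2 and HIBADH. The element of estrogen-related receptors, TCAAGGTCA, and the E-box TCACGTGA were in none of the members' windows, and in 0.353% and 0.98% of all windows. The 250 upstream bases of the members had a median GC content of 65.2% and a median of 20 CpG dinucleotides, against 58.0% and 11 over the windows of all genes. Matches of letters are given as a description, and no binding was measured.

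Enzymes that share a step or a complex were compared by the difference between their changes at 24 h, in 22 comparisons (11 pairs in each line), where 3 arrays against 3 allow an exact permutation p of 0.1 at the least. The mitochondrial reductase DECR1 and the peroxisomal DECR2 differed by 0.86 in HT-29 and 0.90 in HCT116. DECR2 read 6.84, 6.72 and 6.92 untreated and 6.61, 6.57 and 6.65 after 24 h in HCT116, below every untreated array. The thiolases ACAA2 and ACAA1 differed by 0.66 in HCT116, and the transaminases BCAT1 and BCAT2 by 0.87. Each of these 4 differences had the smallest p the design allows, 0.1 (exact permutation test, two-sided, adjusted p = 0.44 over the 22). No other pair reached it. The subunits MCCC1 and MCCC2 differed by -0.01 in HT-29 and 0.05 in HCT116, and ETFA and ETFB by 0.07 and 0.21. BCAT2 read 10.52, 10.56 and 10.91 untreated and 9.67, 10.29 and 10.62 after 24 h in HCT116.

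The split between replicate 1 and the other HT-29 arrays reached 8 members. ETFA, CROT, DECR2, BCKDHB and MCCC1 had all 3 replicate 1 arrays above the other 6 HT-29 arrays, which held for 4.30% of single-gene transcripts, and CPT1A, ACADS and ECI2 had them below, which held for 4.54%. CROT averaged 8.28 in replicate 1, 5.47 in replicate 2, 6.03 in replicate 3 and 5.10 in HCT116, over all times. BCKDHB averaged 10.83, 9.24, 9.15 and 9.43 in the same order. In both, replicates 2 and 3 lay nearer to HCT116 than to replicate 1. ECI2 averaged 11.45, 12.33, 12.65 and 12.40, and CPT1A, the carnitine palmitoyltransferase that controls entry of long chains into mitochondria, 10.80, 11.49, 11.65 and 11.52. For CROT this spread left the 24 h difference in HT-29 at 0.04 with an SE of 0.92. The origin of the split was not tested.

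**Figure D4:**
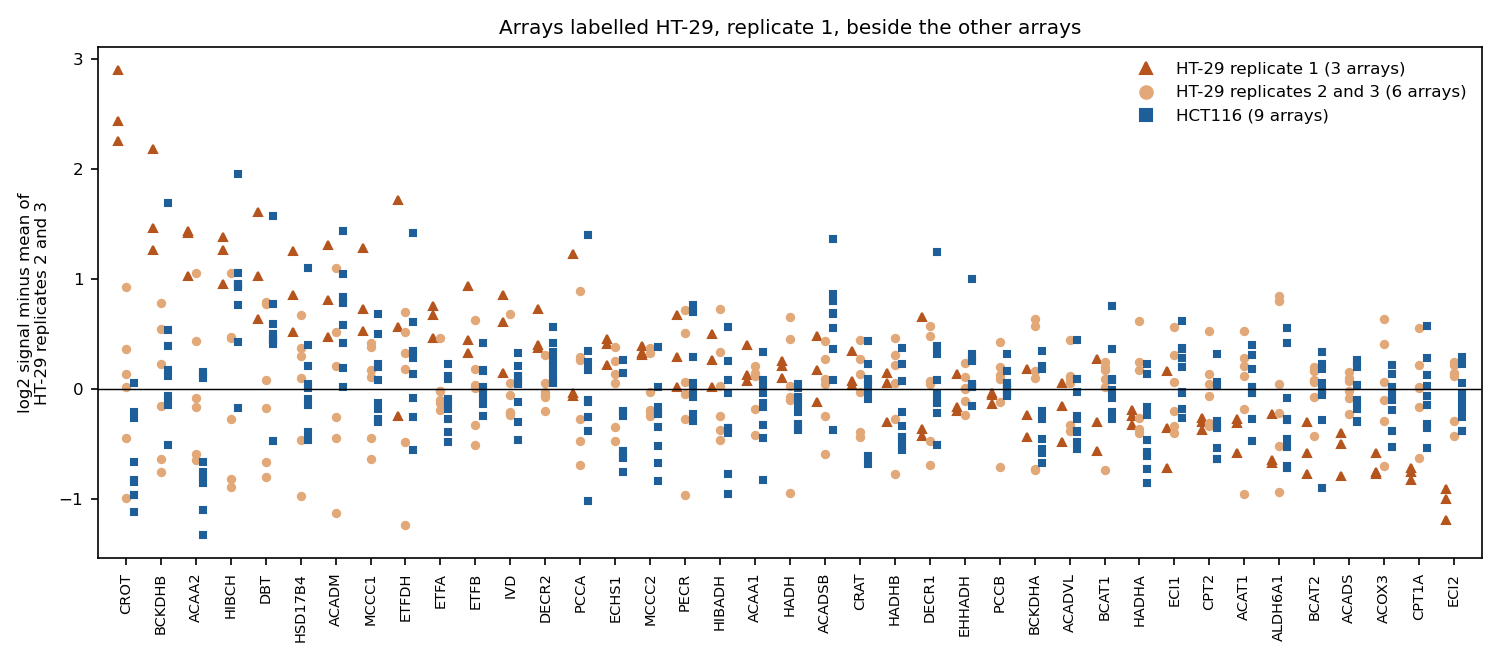
Log2 signal of each member (x axis, ordered by the difference) minus its mean over HT-29 replicates 2 and 3 (y axis), with triangles for the 3 HT-29 replicate 1 arrays, circles for the 6 other HT-29 arrays and squares for the 9 HCT116 arrays. The replicate 1 arrays of CROT lie above all other arrays, and those of ECI2 lie below all other arrays.

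ACADS, ECI2 and MCCC2 differed by -0.04, 0.19 and 0.37 in HT-29 and by 0.18, 0.33 and 0.51 in HCT116 at 24 h, without a call. The remaining 20 members ranged from -0.34 to 0.51 in HT-29 and from -0.47 to 0.94 in HCT116 at 24 h, with 15 and 17 of them above 0, and none was a DET in any comparison. At 4 h they ranged from -0.95 to 0.44 in HT-29 and from -0.20 to 0.49 in HCT116. MCCC1 and ACAT1, the thiolase of isoleucine breakdown and ketone metabolism, were among the members higher at an unadjusted p under 0.05 in HCT116 at 24 h, by 0.56 (SE 0.21) and 0.48 (SE 0.20).

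Of 58 further genes of these pathways, 52 were measured, on lists of fatty acid activation and carnitine supply, other mitochondrial and peroxisomal enzymes, other branched-chain genes, and the regulators and outputs of the PPAR family. In HCT116 at 24 h, 4 of them rose and 0 fell, where 1.24% of all and 1.94% of single-gene transcripts were DETs. CAT, the peroxisomal catalase that removes hydrogen peroxide, read 8.26, 8.56 and 7.63 untreated and 10.26, 9.27 and 8.92 after 24 h, a rise of 1.33 (SE 0.34, adjusted p = 0.338). PDK4, the pyruvate dehydrogenase kinase that spares glucose when fatty acids are burnt, read 4.92, 4.71 and 5.11 and then 7.24, 5.82 and 5.61, a rise of 1.31 (SE 0.37, adjusted p = 0.385). For both, replicate 1 was the highest array of the 24 h group, as for 20 of the members. ACSL5, a fatty acid ligase, rose by 0.73 (SE 0.21) and ACAD11, an acyl-CoA dehydrogenase, by 0.81 (SE 0.24). The median of the 52 at 24 h was 0.13 in HT-29 and 0.13 in HCT116, where that of the 39 members was 0.27 and 0.46. Between 4 h and 24 h in HCT116, ACAD10 and ACAD11 rose, and SLC25A44, a mitochondrial carrier of branched-chain amino acids, fell by 0.91 (SE 0.23), where 3.48% of single-gene transcripts were DETs. By limma, no gene of these lists was a DET in HT-29 at 4 h, at 24 h or between them, nor in HCT116 at 4 h. The counts at an unadjusted p under 0.05 were 0, 4, 8 and 0 of 52, where 2.78%, 4.67%, 8.06% and 3.13% of single-gene transcripts passed. In HCT116 they were 10 at 24 h and 13 between the times, where 10.6% and 14.1% passed. The methods' t-test gave 0 DETs among the 52 genes in each of the 6 comparisons within lines, so the calls named here were not met by it.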

How the data were processed

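RNA of 18 cultures was hybridised to Affymetrix whole-transcriptome arrays. Per the methods, the authors normalized probe sets by RMA with the oligo package, separately for each cell line, and took means per transcript. The deposited values are log2 signals. They range from 2.28 to 19.92, above the scanner ceiling of 16, and the sources used here do not say which software made them, so fold changes assume that the scale is log2 as stated. A separate normalization removes any overall shift between lines.

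The deposited values were used without further normalization. After 2995 control features were left out, 135750 transcripts were tested, of which 36176 carry a single gene in the platform annotation. limma 3.58.1 (lmFit and eBayes) in R 4.3.3 was fitted to the 9 arrays of each line, and to all 18 for the differences between lines, with Benjamini-Hochberg adjustment over all transcripts. Pairs of members were compared by exact permutation of arrays. No column of array values was left unused (0). Array number limits the precision, and 3 arrays a group came from 3 experiments. The fits were tested on simulated data.

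Members and gene lists were chosen with earlier results of these data known. Genes are named when they were DETs, when they had 1 of the 3 smallest p of their class at 24 h in a line, or when their untreated signal was the highest or lowest of their class. Of the 39 members, 19 are named by this rule, and others are named where a result turns on them. Alternatives were the methods' t-test, fits of 6 or 18 arrays, the replicate number as a block, filters on dim and on multi-gene transcripts, the mean over transcripts of a gene, quantile normalization, median centring, a trended robust fit, each array left out, and HT-29 replicates 2 and 3 alone.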

Additional observations from a re-analysis of the deposited data

Results flagged for a closer look

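BCAT1, the cytosolic branched-chain transaminase, had differences of opposite sign in the lines at 24 h. Each HT-29 array treated for 24 h lay below the untreated mean of that line, and each HCT116 array lay above that of its own, for a difference between the changes of 0.79 (HCT116 minus HT-29, SE 0.35, limma, adjusted p = 1.00). It was the 1 member of 39 with an unadjusted p under 0.05 for this difference, and 3.6% of all transcripts had one, so the share of members was no higher than that of all transcripts. In HT-29 replicates 2 and 3 alone its change was -0.17. No member was higher at that threshold in 6 of the 18 omissions of 1 array, those of HT-29 untreated replicate 1 or 2, HT-29 24 h replicate 1, HCT116 untreated replicate 1 or 2 and HCT116 24 h replicate 2. Its signal was close to that of the median transcript on the arrays, and the part of low signal in this result was not tested.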

How the results depend on the processing

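With the methods' t-test the number of members called was 0 in HT-29 at 24 h (against 1), 1 in HT-29 between 4 h and 24 h (against 3) and 2 in HCT116 at 24 h (against 5). There 0.477%, 0.558% and 0.689% of all transcripts were DETs, against 0.377%, 0.906% and 1.24% in the main fits. With the 6 compared arrays alone 1 member was called in HT-29 between 4 h and 24 h and 1 in HCT116 at 24 h. The shares of all transcripts were 0.622% and 0.822%. With all 18 arrays 2 members were called in HT-29 and 1 in HCT116 at 24 h, beside 0.682% and 0.811% of all transcripts. Quantile normalization gave 0 in HT-29 and 2 in HCT116 at 24 h, and moved the mitochondrial median of HCT116 at 24 h from 0.36 to 0.26. HT-29 replicates 2 and 3 alone gave 2 members at 4 h and 2 for the difference between lines at 4 h, beside 1.30% and 0.956% of all transcripts. The labels give the replicate numbers no shared origin. The arrays were not taken as paired, since not every same-numbered pair correlated over 0.1 (range -0.15 to 0.50 in HT-29, -0.07 to 0.24 in HCT116). That rule does not show that the arrays are unpaired, and the SEs of the main fits include any difference between replicate numbers. Of the same-numbered pairs 5 of 9 were over 0.1 in each line, all 3 of replicate 1 among them, against 6 of 18 differently numbered pairs in HT-29 and 2 of 18 in HCT116. With the replicate number as a block, 5 members were called in HT-29 and 7 in HCT116 between 4 h and 24 h. In those fits 1.17% and 2.55% of all transcripts were DETs, against 0.906% and 2.04% without the block. The other counts of called members were as without the block, though in HCT116 at 24 h HADHB lost its call and PCCA gained one. Leaving out each array in turn gave 0 to 1 members in HT-29 at 4 h, 0 to 2 at 24 h and 1 to 6 between the times, 1 to 5 in HCT116 at 24 h and 2 to 4 between the times, and 0 to 1 for the difference between lines at 4 h. In the same order, the share of all transcripts called in HT-29 ranged from 0.150% to 1.06%, 0.255% to 0.454% and 0.659% to 1.81%. In HCT116 it ranged from 0.807% to 1.67% and 1.31% to 2.37%, and for the difference at 4 h from 0.176% to 0.937%. Over the same omissions the peroxisomal median ranged from 0.13 to 0.45 in HT-29 at 24 h, from 0.22 to 0.47 in HT-29 and from 0.29 to 0.50 in HCT116 between the times. The branched-chain median ranged from 0.24 to 0.74 in HT-29 between the times and from 0.46 to 0.71 in HCT116 at 24 h, where the mitochondrial one ranged from 0.33 to 0.47. Among single called members, 28 of 134 other settings and 47 of 117 omissions lost the call, and none turned the direction. The causes of these moves were not tested.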
